A study of Mus musculus with 598 samples.

Results

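Cells ranked by the level of Tbx6, Msgn1, T and Hoxb1 were examined among wild type mouse cells that had been sorted for a Mesp1-GFP reporter at embryonic stage E7.25. The members were the 25 cells with the highest score in each of 2 library sets, 50 cells in all, which is 14.7% of the E7.25 cells and 8.36% of the 598 cells of the series. The score was the mean over the 4 genes of log2(CPM + 1), where CPM is the gene's reads scaled to 1000000 counted reads of the cell. A working name for such cells is presomitic posterior mesoderm. Other presomitic genes were mixed, as described for each gene group. In set 2, Dll1, Hes7 and Aldh1a2 were past 2-fold higher, while Fgf8, Hes1 and Ripply2 were lower. Lfng was past 2-fold higher in set 1 alone, at 14.3 against 5.32 CPM in summed reads. Its mean log2 level per cell in set 1 was 1.43 in ranks 1 to 12 and 2.27 in ranks 13 to 25. The next cells, ranks 26 to 50, were at 2.38 and so no lower. The members are therefore called here by the rule that chose them.

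Each library holds 1 cell, and the labels name no embryo or litter. Besides the E7.25 cells there were wild type cells of E6.75, 83 in library set 1 and 89 in set 2, and 85 knockout cells of E6.75, all sorted for Mesp1-GFP. Every cell therefore comes from the Mesp1 reporter lineage as gated at sorting, and posterior cells without the reporter were not sampled. The labels do not name the gene removed in the knockout cells. Mesp1 was at 7.40 CPM in them against 406 CPM in the wild type E6.75 cells of the same library set. The extraction text in the labels describes adult bone marrow, which does not match the stated stage and cell type.

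The libraries fall into 2 sets that the labels do not give. In set 1, 8 genes were all read in every E7.25 cell, and in set 2 between 0 and 4 of them were read per cell. They are Foxe1, Vax1, Hoxd13, Six3, Sox3, Dusp15, Pou3f3 and Kcnk12. The 25 members were 14.5% of the E7.25 cells of set 1 and 14.9% of those of set 2. Counted reads per cell had a median of 907211 in the set 1 members and 791310 in the other set 1 cells. In set 2 the medians were 2430059 and 2255574. The deepest set 1 cell outside the members had 14159574 reads, 8.81% of the reads of its group. Kdm5d, Eif2s3y and Uty, which are Y-linked, summed above 3 CPM in 23 of 25 set 1 members (92%, 95% exact binomial interval 73.97 to 99.02) and in 72 other set 1 cells (48.6% of them, 40.4 to 56.99). No set 2 cell passed that level. In set 1, membership therefore moves together with Y-linked reads. The part of these reads in the set 1 results was not tested beyond values within the cells that have them. Membership also moves with the running number of the cells. All set 2 members and nearly all set 1 members lie in the later part of their set's numbers. The other cells span the whole range. The labels do not say what the numbers follow, and their part in the ratios of either set was not tested.

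As background, the presomitic mesoderm is the unsegmented tissue behind the last somite, fed by cells leaving the primitive streak. T (Brachyury) is a T-box factor of the streak and notochord, Tbx6 a T-box factor needed for paraxial mesoderm, and Msgn1 a bHLH factor of the presomitic mesoderm. Hoxb1 is an anterior Hox gene that is switched on early in the posterior streak. WNT and FGF signals keep the posterior cells unsegmented, the Notch ligand Dll1 and the oscillating repressor Hes7 belong to the segmentation clock, and retinoic acid made by Aldh1a2 opposes the posterior signals.

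The score ran from 5.28 to 7.87 in the set 1 members (median 5.68) and from 7.43 to 9.31 in the set 2 members (median 8.68). The cell ranked just outside had 5.24 in set 1. In set 2 that cell also had 7.43 at the printed precision, so no gap separates members from the next cells. Scores are not level between the sets: 2 set 1 cells reached the lowest member score of set 2, while 45 set 2 cells reached that of set 1. These values follow from the rule and are a description.

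The 4 score genes were unequal between the sets (see the plot of levels per cell). All 4 were read in 24 of 25 set 2 members but in 13 of 25 set 1 members, and 3 were read in each remaining member. T lies at chr17:8434423-8442496 (mm10, GENCODE vM21). It was at 462 CPM in the summed reads of the set 1 members (95% Poisson interval 454 to 471; lowest cell 163.9, median 430, highest 847). In set 2 it was at 1282 CPM (1273 to 1292; lowest cell 392, median 1256, highest 2485). Every member thus carried T at well over 100 CPM. Tbx6 (chr7:126781483-126785560) was at 82.4 CPM in set 1 (78.9 to 86.1; lowest cell 0, median 65.9, highest 262.8) and at 388 CPM in set 2 (383 to 393; 75.4, 363 and 803). Hoxb1 (chr11:96365752-96368256) was at 141.03 CPM in set 1 (136.4 to 145.8; 5.72, 126.5 and 459) and at 679 CPM in set 2 (672 to 685; 212.8, 659 and 1264).

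Msgn1 (chr12:11208360-11208972) was at 132.98 CPM in set 2 (130 to 136.02; lowest cell 0, median 124.1, highest 367) and read in 24 of 25 members (96%, 79.6 to 99.9), against 1.66 CPM and 27 other cells (18.9%). In set 1 it was at 20.7 CPM (18.96 to 22.6; 0, 0.71 and 230) and read in 14 of 25 members (56%, 34.9 to 75.6), against 0.70 CPM and 6 other cells (4.05%). With every cell thinned to 100000 reads, Msgn1 was still read in 88% of set 2 members and in 44% of set 1 members. The median set 1 member thus had almost no Msgn1 read, and 1 cell gave 35.5% of the set 1 members' Msgn1 reads. The intervals on summed reads and on shares of cells cover counting error only. Each group is 1 sample for lack of embryo labels, so no test between groups was possible and none is given.

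**Figure D1:**
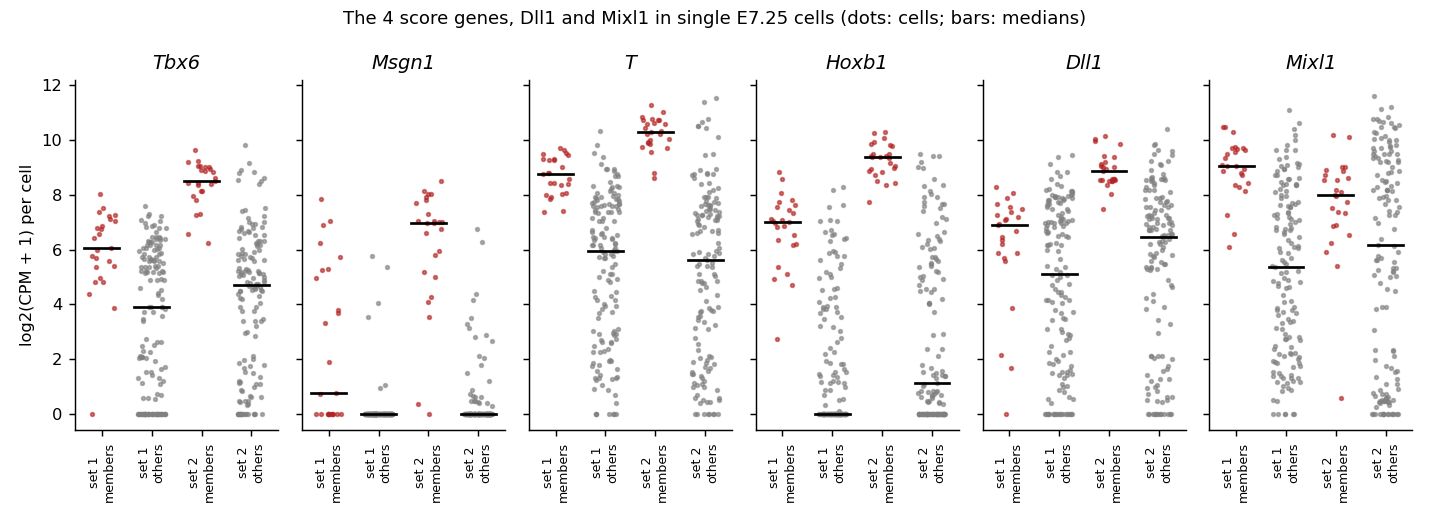
Level per cell as log2(CPM + 1) of the 4 score genes and of Dll1 and Mixl1, for members and other E7.25 cells of each library set; each dot is 1 cell and each bar a median. The Msgn1 bar of the members lies near 7 in set 2 and below 1 in set 1. In the Dll1 and Mixl1 panels, genes the score did not use, the member bar lies above the bar of the other cells in both sets.

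When a score gene was left out of the score and the 25 highest cells were chosen by the other 3, the left-out gene could be read without having been used. Msgn1 was 14.8 against 1.37 CPM in set 1 and 98.7 against 8.51 CPM in set 2, log2 ratios of 2.74 and 3.39. Hoxb1 gave log2 ratios of 1.67 and 3.09, T of 1.40 and 2.37, and Tbx6 of 0.82 and 2.19. All 8 ratios are above 0, each is larger in set 2, and Tbx6 in set 1 is the one below the 2-fold level. With the 15 highest cells of each set in place of 25, Msgn1 was the exception to that order, at 2.64 in set 1 and 2.02 in set 2. Between 18 and 23 of the 25 cells chosen this way were also members.

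The letters upstream of the genes are shown for 4 starts because Msgn1 and Tbx6 are score genes of the presomitic programme, and Wnt5b and Efna1 were members of the shared higher genes with a match to a WNT or T-box word. Each line is the 250 bases before a RefSeq start (GRCm38.p6), read 5′ to 3′ on the gene's strand, with matches in capitals.
Msgn1 (chr12:11208949-11209198, minus strand): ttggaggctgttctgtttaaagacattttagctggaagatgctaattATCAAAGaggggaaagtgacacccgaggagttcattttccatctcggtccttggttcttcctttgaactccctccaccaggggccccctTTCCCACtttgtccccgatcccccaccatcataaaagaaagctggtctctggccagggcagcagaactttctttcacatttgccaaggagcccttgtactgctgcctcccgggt
Tbx6 (chr7:126781233-126781482, plus strand): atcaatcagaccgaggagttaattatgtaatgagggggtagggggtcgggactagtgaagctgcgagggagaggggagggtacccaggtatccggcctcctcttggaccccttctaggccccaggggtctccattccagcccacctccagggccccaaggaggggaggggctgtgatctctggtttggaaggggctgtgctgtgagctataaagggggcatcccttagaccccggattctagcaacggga
Wnt5b (chr6:119449387-119449636, minus strand, 1 of 3 listed starts): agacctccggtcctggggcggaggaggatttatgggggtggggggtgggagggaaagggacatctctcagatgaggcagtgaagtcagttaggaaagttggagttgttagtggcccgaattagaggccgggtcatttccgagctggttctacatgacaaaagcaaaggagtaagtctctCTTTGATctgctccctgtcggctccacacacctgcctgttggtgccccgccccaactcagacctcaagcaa
Efna1 (chr3:89280952-89281201, minus strand, 1 of 2 listed starts): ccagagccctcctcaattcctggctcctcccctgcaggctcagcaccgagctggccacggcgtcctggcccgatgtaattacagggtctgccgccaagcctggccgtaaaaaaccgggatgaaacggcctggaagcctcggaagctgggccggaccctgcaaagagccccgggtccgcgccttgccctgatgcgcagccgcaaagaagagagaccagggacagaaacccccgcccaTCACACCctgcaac
The search took 3 words of 7 letters on both strands: GGTGTGA for T-box factors, CTTTGAT for TCF/LEF, the DNA-binding partners of WNT signalling, and GTGGGAA for RBPJ, the partner of Notch. None of the 3 overlaps another in the windows shown. In the Msgn1 window the TCF/LEF word lies further from the start than the RBPJ word. The Wnt5b window holds the TCF/LEF word beginning 71 bases before the start, and the Efna1 window the T-box word 14 bases before it. Of 18 score and shared higher genes, 16 had windows, and Fst and Cdx1 had no entry in the table. The T-box word was found for 1 of them (Efna1), the TCF/LEF word for 3 (Msgn1, Tnfrsf19, Wnt5b) and the RBPJ word for 2 (Lrp8, Msgn1). Over all 27025 genes in the table the words were found for 3.84%, 3.72% and 6.18%. A match is a description of letters and not a measured site.

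Counts over all genes put the named genes in scale. A gene was counted as higher or lower in the members when the log2 ratio of summed CPM, with 1 CPM added to both sides, was at least 1 in size, that is 2-fold, among 10026 genes of at least 5 CPM over all E7.25 cells in each set. In set 1, 2.04% of these genes were higher and 7.39% lower. In set 2, 1.69% were higher and 4.54% lower. In both sets 48 were higher (0.479%), and 1.66% were lower. The genes higher in both sets are 23.4% of those higher in set 1 and 28.4% of those in set 2, and the genes lower in both are 22.4% and 36.5%. Another 13 genes were higher in set 1 and lower in set 2, and 14 the reverse. Of the genes past 2-fold in set 1, 68.1% had the same sign in set 2, against 55.7% of all genes tested. Across genes the ratios of the sets had a Pearson correlation of 0.31 and a Spearman correlation of 0.18. Genes are not independent replicates, so these are descriptions. Most genes past 2-fold in 1 set fell short of it in the other, while most of them kept the same sign (68.1% and 74.5% of those past it in sets 1 and 2).

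**Figure D2:**
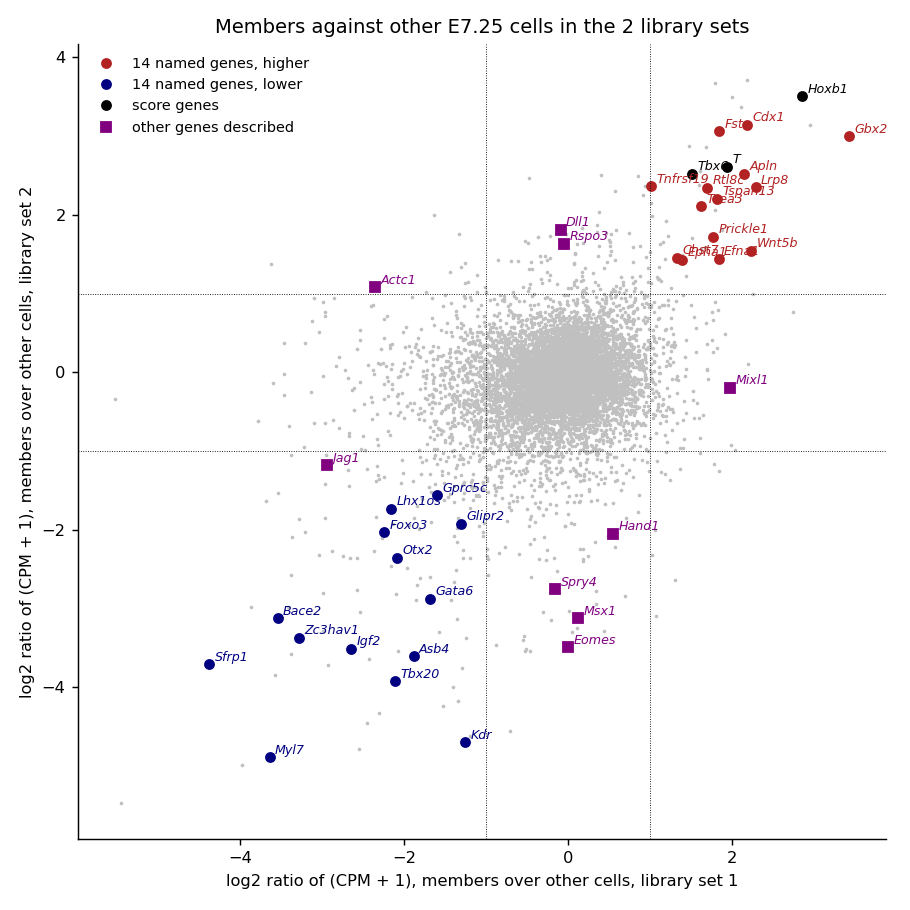
Log2 ratio of (CPM + 1), members over other E7.25 cells, in library set 1 (x axis) and set 2 (y axis) for each of 10026 genes, with dotted lines at 2-fold. Named genes higher in both sets lie at the upper right and those lower in both at the lower left, while Dll1 and Rspo3 lie high in set 2 alone, Mixl1 in set 1 alone, and Eomes, Msx1 and Spry4 low in set 2 alone.

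The genes higher in both sets were chosen by the smaller of the 2 differences in mean level per cell. First among them was Fst, follistatin, a secreted binder of activin and other TGF-beta ligands. In set 1 it was at 415 CPM in the members (407 to 423; lowest cell 14.3, median 396, highest 1026) against 115.01 CPM in the other cells (median 39.2, highest 980). In set 2 it was at 1119 CPM (183.4, 876 and 2568) against 133.1 CPM (median 38.5, highest 1614). Every member had Fst reads, and the ranges of members and other cells overlap in both sets. The log2 ratios were 1.84 and 3.06. Gbx2, a homeobox gene of the posterior embryo and later hindbrain, was at 43.8 against 3.16 CPM in set 1 and 90.8 against 10.5 CPM in set 2, log2 ratios of 3.43 and 2.995. It was read in 20 and 24 of 25 members and in 22.97% and 39.9% of other cells.

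Wnt5b, a WNT ligand of the non-canonical branch, was at 96.5 against 19.7 CPM in set 1 and 55.99 against 18.5 CPM in set 2. Prickle1, a planar cell polarity protein of the same branch, was at 129.4 against 37.2 and 152.1 against 45.4 CPM. Epha1, an Eph receptor, was at 185.8 against 70.1 and 291.9 against 108.03 CPM, and the ephrin ligand Efna1 at 83.6 against 22.7 and 60.6 against 21.6 CPM. A receptor and a ligand of one family were thus both higher in the members of either set. Apln, the apelin peptide, was at 67.7 against 14.5 and 169.02 against 28.6 CPM, with 1 cell giving 17.4% of the set 2 members' reads. Tnfrsf19, a TNF receptor family member, had a log2 ratio of 1.01 in set 1, just past 2-fold, and 2.36 in set 2. The call in both sets was lost under 8 of 22 alternatives for Tnfrsf19 and 4 of 22 for Epha1. Lrp8, a lipoprotein receptor that binds reelin, had ratios of 2.29 and 2.35.

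Of the other genes chosen this way, Cdx1 is a caudal homeobox factor. It was at 34.7 against 6.87 CPM in set 1 and 49.2 against 4.68 CPM in set 2, and was read in 16 and 21 of 25 members. Tspan13 (a tetraspanin), Rtl8c (a retrotransposon-derived gene on the X chromosome), Tcea3 (an elongation factor) and Chst7 (a sulfotransferase) had log2 ratios between 1.33 and 1.82 in set 1 and between 1.45 and 2.34 in set 2. Among set 1 cells with Y-linked reads alone, 23 members against 72 others, all 14 of these genes were again past 2-fold.

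Of the other Cdx and Hox genes, Cdx2 was past 2-fold in both sets, as Cdx1 was. Cdx2, a caudal factor of the posterior body, was at 38.3 against 2.50 CPM in set 2 and 23.9 against 5.20 CPM in set 1. Below the level needed for counting, Hoxa2 was at 26.2 against 1.01 CPM and Hoxb2 at 18.4 against 3.24 CPM in set 2.

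Segmentation clock and Notch genes divided the sets. Dll1, the Notch ligand of the presomitic mesoderm, was at 565 CPM in the set 2 members (558 to 571; lowest cell 176.3, median 463, highest 1138) against 160.6 CPM in the others (median 87.97, highest 1365). In set 1 the summed level was 120.6 CPM (116.3 to 124.997; lowest cell 0, median 118.3, highest 312.9) against 128.6 CPM (median 33.9, highest 695). The set 1 sums are about level while the median member is above the median other cell. In addition, 1 comparison cell, the deepest of set 1, gave 31.3% of the others' Dll1 reads. Without that cell the others were at 96.9 CPM and the log2 ratio was 0.31 in place of -0.09. Among set 1 cells with Y-linked reads the levels were 117.02 against 190.8 CPM. Hes7, the clock repressor, was read in all 25 set 2 members (24.1 CPM, lowest cell 1.90, median 21.1, highest 60.8) and in 24.5% of others (2.39 CPM). In set 1 it was read in 11 of 25 members (4.61 CPM) and 15.5% of others (1.26 CPM). After thinning to 100000 reads these shares of members were 80% and 12%, against 10.5% and 4.05% of others.

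Over the whole Notch and segmentation list, 10 of 14 genes were counted, with none higher in both sets and 2 lower in both. The medians were -0.19 in set 1 and 0.09 in set 2, against -0.03 and -0.04 for all genes tested. The 2 lower genes were Jag1, another Notch ligand, at 14.2 against 116.02 and 38.03 against 87.4 CPM, and Ripply2, a repressor at the forming somite border, at 1.36 against 33.5 and 4.20 against 39.9 CPM. The deepest set 1 comparison cell gave 42.5% of the others' Jag1 reads and 63.7% of their Ripply2 reads. Without it the others were at 73.1 and 13.4 CPM, and the set 1 log2 ratios were -2.29 and -2.60. Mesp2 and Dll3 had log2 ratios between -0.10 and 0.50 in both sets. Pcdh8, a protocadherin of the paraxial mesoderm, was at 220 against 113.8 CPM in set 2 and 58.4 against 71.2 CPM in set 1. Hes1, a general Notch target, was at 20.7 against 78.1 CPM in set 2 and 42.5 against 59.3 CPM in set 1.

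In the WNT list, 3 of 11 counted genes were higher in both sets, against 0.479% of all genes tested, and none was lower in either. The medians were 0.996 and 0.69. The 3 were Wnt5b, Sp8 and Axin2. Sp8, a zinc finger factor downstream of WNT, was at 123.04 CPM in the set 2 members (lowest cell 9.98, median 129.3, highest 393) against 16.1 CPM, and at 44.1 against 13.1 CPM in set 1. Axin2, a feedback inhibitor, was at 31.5 against 10.2 CPM in set 2 and 14.2 against 6.59 CPM in set 1, just at 2-fold there. Without the deepest comparison cell its set 1 log2 ratio was 0.89, and within set 1 cells with Y-linked reads 0.26. The 2-fold call in both sets was lost under 8 of 21 alternatives. Each member of both sets had Sp8 reads. Rspo3, a secreted enhancer of WNT signalling, was at 165.1 against 52.7 CPM in set 2 and 86.1 against 89.4 CPM in set 1. Wnt3a, a posterior WNT ligand too low overall to be counted, was at 89.7 against 7.29 CPM in set 2 and 8.02 against 1.40 CPM in set 1. It was read in 20 and 11 of 25 members. Dkk1, a WNT inhibitor, was at 200 against 52.4 CPM in set 1 and 100.7 against 71.6 CPM in set 2.

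In the FGF list, 1 of 14 counted genes was higher in both sets and 2 lower, against 0.479% and 1.66% of all genes tested. The medians were -0.11 and -0.36. Fgf4, a streak ligand, was at 87.6 against 32.9 CPM in set 1 and 48.7 against 16.7 CPM in set 2. Fgf5, a ligand of the epiblast, was at 24.5 against 74.98 and 5.90 against 66.8 CPM, and Fgf10, later a ligand of heart and limb mesoderm, at 4.53 against 18.8 and 3.96 against 31.3 CPM. Fgf8, the ligand of the presomitic gradient, was at 16.7 against 17.7 and 20.6 against 31.8 CPM, so it was not among the genes past 2-fold. The receptor Fgfr1 had log2 ratios of 0.69 and 0.68. Spry4, a feedback inhibitor, was at 8.99 against 66.4 CPM in set 2 and 40.96 against 45.7 CPM in set 1.

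Retinoic acid genes were read differently in the members of each set. Aldh1a2, the enzyme that makes retinoic acid, was read in all 25 set 2 members, at 102.5 CPM (99.9 to 105.2; lowest cell 0.28, median 66.3, highest 414), against 26.6% of others at 10.4 CPM. In set 1 it was at 0.84 against 1.83 CPM and read in 5 of 25 members. Cyp26a1, the enzyme that breaks retinoic acid down, was at 216.9 against 718 CPM in set 2, where 1 member gave 62.9% of the reads, and at 611 against 780 CPM in set 1.

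**Figure D3:**
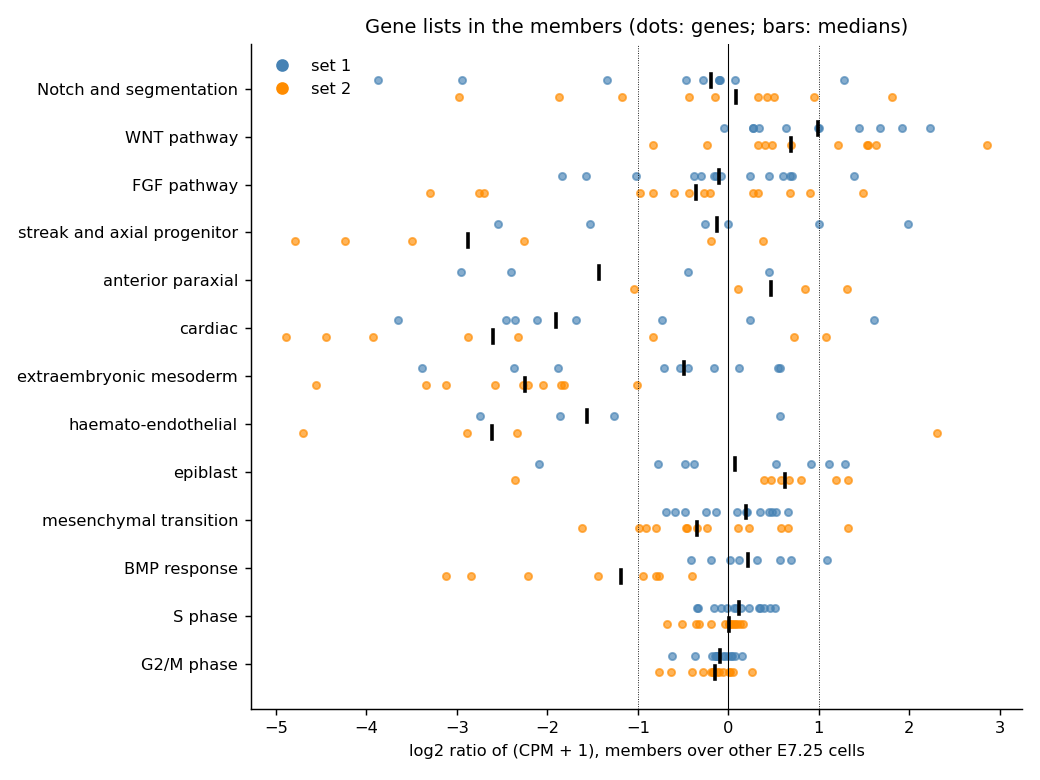
Log2 ratio of (CPM + 1), members over other E7.25 cells, for the counted genes of 13 lists with 3 or more of them, with set 1 and set 2 side by side; each dot is 1 gene and each bar a median. Most WNT pathway genes lie to the right in both sets, most cardiac genes to the left, and the streak, extraembryonic mesoderm and BMP response lists lie further left in set 2 than in set 1.

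Streak genes differed most between the sets. Mixl1, a homeobox gene of the streak, was at 629 CPM in the set 1 members (619 to 639; lowest cell 67.4, median 531, highest 1435) against 158.5 CPM in the others (median 40.6). In set 2 it was at 334.2 CPM (0.48, 251.02 and 1152) against 383 CPM (median 70.4), about level in the sums. These sums pool unlike comparison cells. Most other set 2 cells with earlier running numbers had high Mixl1. Most with later numbers, where all set 2 members lie, had little. Nearly all set 2 members were above most other cells of the later numbers. The level sums therefore do not show that the sets differ in Mixl1, and a comparison within the later numbers was not tested. Eomes, a T-box factor of the early streak, was level in set 1, at 207.15 CPM in members against 207.04 CPM (member median 150, other median 205.6). In set 2 it was at 25.3 CPM (lowest cell 0, median 5.39, highest 166.3) against 294.1 CPM (median 296.9). The set 2 members therefore had T with little Eomes, and the set 1 members had both. Among set 1 cells with Y-linked reads Mixl1 was at 602 against 98.5 CPM and Eomes at 201.5 against 168.9 CPM. Lhx1, a LIM homeobox gene, and Gsc, of the anterior streak, were lower in both sets, Lhx1 at 89.03 against 258.5 and 27.3 against 533 CPM. Gsc had no read in any set 2 member against 26.6 CPM in the others. A limit of 3 reads over the group would put it 502-fold lower. That limit takes reads as independent and leaves out the spread among 25 cells, so it is no lower bound. Nkx1-2, a marker of neuromesodermal progenitors below the counting level, was at 63.2 against 8.03 CPM in set 2 and read in 21 of 25 members, and at 1.32 against 1.47 CPM in set 1. Sox2, the neural partner of T in such progenitors, was read in 2 of 25 members in each set. Over the list, 6 of 9 genes were counted, none was higher in both sets and 2 were lower, with medians of -0.13 and -2.87.

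Mesp1 itself, the gene behind the sorting reporter, was at 852 CPM in the set 1 members (lowest cell 231.5, median 807, highest 1361) against 481 CPM in the others. In set 2 it was at 410 CPM (27.9, 361 and 1568) against 553 CPM. The log2 ratios of 0.82 and -0.43 have opposite signs and neither reaches 2-fold. Every member had Mesp1 reads in both sets.

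Levels along the score rank give the same contrast within each set. Fst had a mean log2 level of 8.36 and 8.46 in ranks 1 to 12 and 13 to 25 of set 1, then 7.14, 6.07 and 3.32 in ranks 26 to 50, 51 to 100 and beyond. In set 2 the same steps were 9.99, 9.58, 7.70, 5.91 and 3.47. Hes7 and Aldh1a2 were graded in set 2 (4.50, 3.91, 2.37, 0.35 and 0.25 for Hes7) and stayed below 2 in every step of set 1. In set 2, Eomes stood at 3.49 and 2.13 in the members' steps and at 5.23, 7.34 and 7.34 in the later steps, and in set 1 between 6.14 and 7.67. In set 2 the means of ranks 26 to 50 for Hes7 and Eomes thus lay between those of the members and of the later steps. Hes7 was read in 15 of these 25 cells. A mean over such a step can mix high and low cells, so it does not show that single cells were intermediate.

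**Figure D4:**
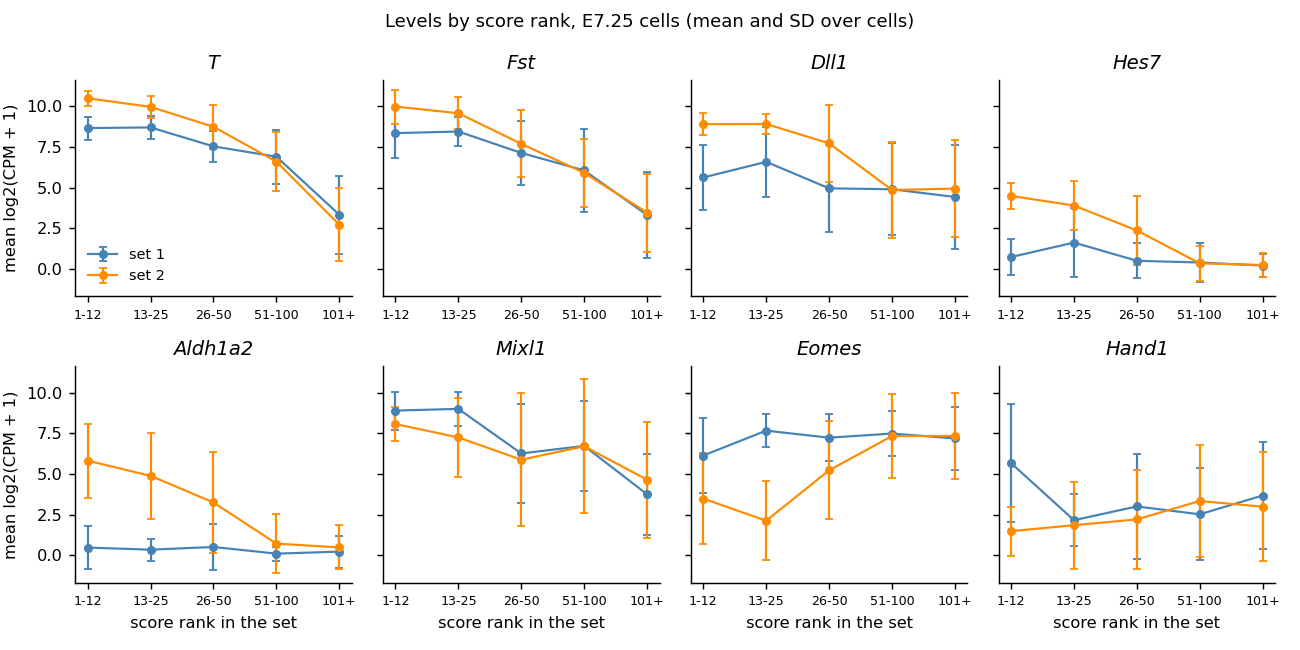
Mean log2(CPM + 1) of 8 genes by score rank in library sets 1 and 2, with SD over cells as bars. T and Fst decline with rank in both sets. Dll1 is higher in the members' ranks than in ranks from 51 on in both sets, by more in set 2. In set 1 its mean is 5.63 in ranks 1 to 12 and 6.59 in ranks 13 to 25. Hes7 and Aldh1a2 decline in set 2 and stay below 2 in set 1. Eomes is lowest in the members' ranks of set 2, and in set 1 its lowest mean, 6.14, is in ranks 1 to 12.

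Among genes chosen by the rule for lower genes, Myl7 (myosin light chain of the atria) stood at 16.1 against 212.8 CPM in set 1 (member median 6.38, other median 99.2) and 5.60 against 194.6 CPM in set 2 (3.81 and 58.04). Sfrp1, a secreted WNT inhibitor, was at 2.05 against 62.4 and 10.999 against 155.4 CPM. Otx2, a head and epiblast homeobox factor, was at 32.7 against 142.8 and 37.5 against 195.8 CPM, with 1 cell giving 48.3% of the set 2 members' reads. The 3 genes were past 2-fold lower in both sets. Kdr, the VEGF receptor of endothelial precursors, was at 45.02 against 109.1 and 5.10 against 157.5 CPM. Gata6, a GATA factor of heart and endoderm, was at 17.1 against 57.1 and 11.8 against 92.6 CPM. Tbx20, a cardiac T-box factor, was at 4.25 against 21.7 and 0.62 against 23.6 CPM, and 1 member gave 95.3% and 80% of its reads in the members.

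The other genes chosen as lower were Igf2 (an imprinted growth factor), Asb4 (an ankyrin repeat protein of early mesoderm), Foxo3 (a forkhead factor), Zc3hav1 (an antiviral zinc finger protein), Bace2 (a protease), Gprc5c (an orphan receptor), Glipr2 and Lhx1os. Their log2 ratios ran from -3.55 to -1.31 in set 1 and from -3.60 to -1.56 in set 2. Lhx1os lies antisense to Lhx1 and no source used here gives the strand setting of the counting, so its reads and those of Lhx1 cannot be told apart. Within set 1 cells with Y-linked reads, 12 of the 14 lower genes were past 2-fold, and Glipr2 and Kdr were at -0.75 and -0.89.

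By list, 4 of 8 counted cardiac genes were lower in both sets, against 1.66% of all genes tested, and none was higher. The medians were -1.90 and -2.60. The cardiac list includes Myl7, Gata6, Tbx20 and Bmp2. The other 4 counted genes had opposite signs in the sets. Gata4 was at 223.8 against 189.2 CPM in set 1 and 43.1 against 220 CPM in set 2. Isl1, a factor of heart precursors, was at 23.1 against 6.88 CPM in set 1, past 2-fold higher but read in 7 members, and at 7.42 against 13.99 CPM in set 2. Of 10 extraembryonic mesoderm genes, 3 were lower in both sets, 3 in set 1 and all 10 in set 2. Over all genes tested these shares were 1.66%, 7.39% and 4.54%. The list had medians of -0.49 and -2.25. The 3 were Krt18, Krt8 and Ahnak, structural genes of epithelium-like mesoderm. Hand1, a bHLH factor of extraembryonic mesoderm, was at 133.3 against 91.01 CPM in set 1, where 1 member gave 30.1% of the reads (median 6.37), and at 26.2 against 111.5 CPM in set 2. Msx1 was at 85.6 against 78.7 CPM in set 1 and 9.50 against 90.3 CPM in set 2. Foxf1 was read in every set 1 cell, at 1374 and 1532 CPM but at 20.2 and 41.6 CPM in set 2, a difference between library sets like that of the 8 genes that define them.

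In the haemato-endothelial list, 3 of 4 counted genes were lower in both sets, against 1.66% of all genes tested. They were Kdr, Etv2, the endothelial pioneer factor, at 7.26 against 54.5 and 8.69 against 47.9 CPM, and Gata2. Within set 1 cells with Y-linked reads Kdr and Gata2 were at log2 ratios of -0.89 and -0.94, short of 2-fold, and Etv2 at -2.94. The call in both sets was lost under 8 of 22 alternatives for Kdr and 5 of 21 for Gata2. The remaining gene, Lmo2, was at 69.4 against 13.3 CPM in set 2, read in 24 of 25 members, and at 28.4 against 18.8 CPM in set 1. The list's medians were -1.56 and -2.61. Of 12 further genes too low to be counted, Cdh5, Pecam1 and Tek among others had no read in the set 2 members. BMP response genes were on either side: none of 8 was past 2-fold in both sets, and the medians were 0.22 and -1.19. Id1, a BMP target, was at 172.5 against 80.3 CPM in set 1 and 97.3 against 129.03 CPM in set 2, and Bambi, a BMP pseudoreceptor, at 122.3 against 139.4 and 41.1 against 113.1 CPM.

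Anterior paraxial genes also differed by set. Foxc2, a forkhead factor of somitic and head mesoderm, was at 5.18 against 47.02 CPM in set 1 and 75.97 against 157.995 CPM in set 2, and was the 1 of 4 counted genes lower in both. Its log2 ratio in set 2 was -1.05, and the call was lost under 9 of 22 alternatives, among them the 15 or the 35 highest cells per set. Foxc1 was at 2.13 against 15.5 CPM in set 1 and 26.2 against 14.1 CPM in set 2, and without the deepest set 1 comparison cell the others of that set were at 9.53 CPM. Meox1 and Meox2, factors of the formed somite, had no read in any set 1 member and were read in 8 and 2 of 25 set 2 members. Tcf15, another somite factor, was at 0.62 against 20.96 CPM in set 2. It was read in 6 set 1 and 8 set 2 members, so most members of either set had no read of these formed somite genes. The medians of the list were -1.42 and 0.48.

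Pluripotency and epiblast genes were mixed. Pou5f1 (Oct4) was at 459 against 212.4 CPM in set 1 and 596 against 261.3 CPM in set 2, and was the gene nearest to the score after Fst: the Spearman correlations across cells were 0.68 and 0.65 for Pou5f1 and 0.63 and 0.71 for Fst, over all E7.25 cells of each set. Gbx2, Rtl8c, Sp5, Tnfrsf19, Epha1, Tspan13 and Tceal8 were also among the 10 highest by the mean of both sets. Cells of a set share library preparation and differ in depth, and these correlations are descriptions. Nanog was at 28.3 against 11.04 CPM in set 1 and 19.8 against 10.9 CPM in set 2. Otx2 was lower in both, and so 1 of 8 counted genes was higher and 1 lower in both sets, with medians of 0.07 and 0.62. Cdh1, E-cadherin, was at 85.7 against 33.8 CPM in set 2 and 10.4 against 14.9 CPM in set 1. In the mesenchymal transition list none of 13 genes was past 2-fold in both sets, with medians of 0.20 and -0.35. Snai1, the factor of streak ingression, was at 202.4 against 158.97 CPM in set 1 and 97.7 against 302.3 CPM in set 2.

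Few cells of the earlier stage reached the members' score. Of 83 wild type E6.75 cells of set 1, 2 reached the lowest member score of the set (2.41%, 95% exact interval 0.293 to 8.43). None of 89 wild type cells of set 2 did (95% exact upper limit 4.06%), nor any of 85 knockout cells (4.25%). T alone was widespread at E6.75, at 292.6 and 333.2 CPM in wild type sets 1 and 2 and 344 CPM in the knockout. Tbx6 was at 17.4 and 19.8 CPM in the wild type and 2.76 CPM in the knockout, and Hoxb1 at 9.19, 18.7 and 4.17 CPM. Dll1 was at 17.3 and 16.7 CPM in the wild type and 2.48 CPM in the knockout. Over all E7.25 cells of sets 1 and 2, Tbx6 was at 35.6 and 116.3 CPM and Hoxb1 at 35.1 and 154.2 CPM. Knockout cells belong to set 1 alone, so set 1 is the wild type set to read them against.

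**Figure D5:**
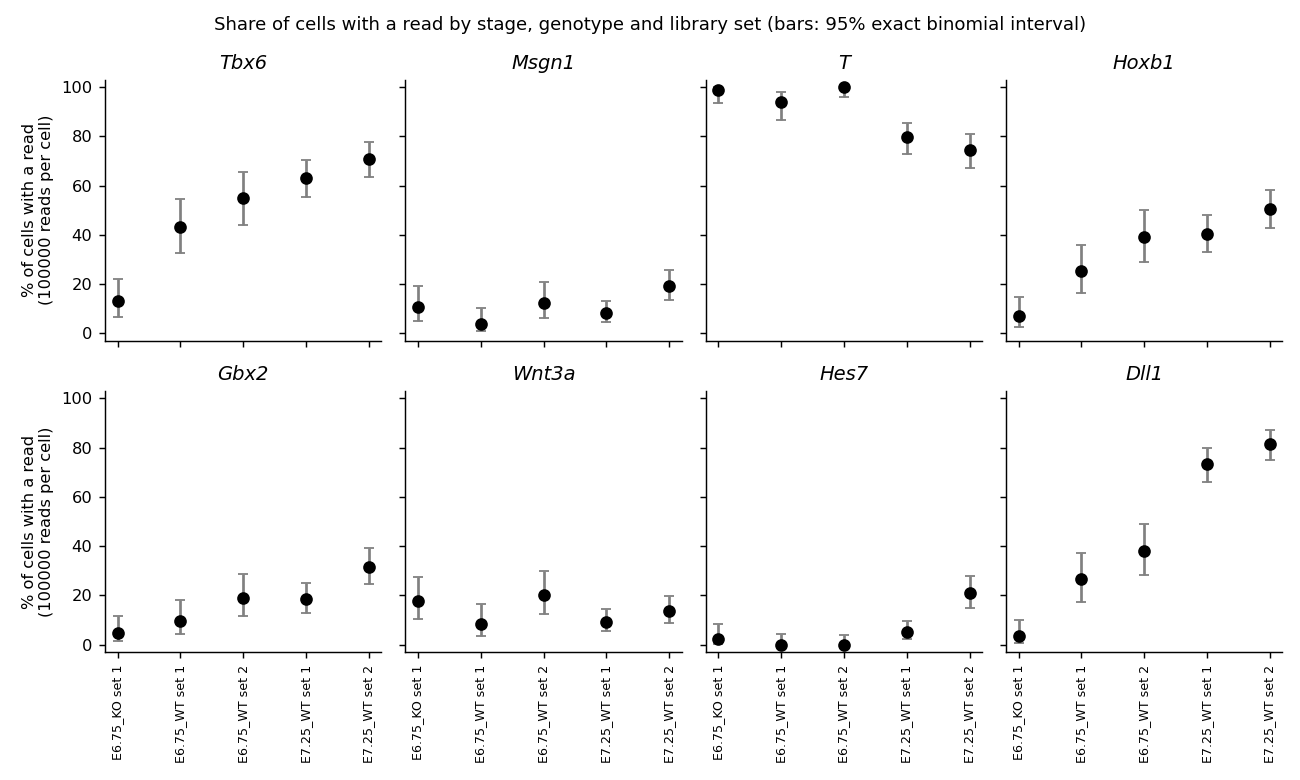
Share of cells with a read, after thinning each cell to 100000 reads, by group and library set with 95% exact binomial intervals. T is read in most cells of every group, while Hes7 is read in few or no E6.75 cells and most often in E7.25 set 2.

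At E6.75 the 12 highest cells by the same score were compared with the rest of their group and set. Of the shared higher genes that were high enough to be counted, 1 of 13 was past 2-fold in wild type set 1, 2 of 13 in wild type set 2 and 1 of 12 in the knockout, against 5.7%, 1.58% and 5.24% of all genes tested. Of the shared lower genes, 3 of 13, 4 of 14 and 4 of 10 were, against 9.96%, 4.85% and 12.2%. Fst, first among the E7.25 genes, had log2 ratios of 0.07, 0.21 and 0.04. Zc3hav1 was past 2-fold lower in all 3 comparisons, with log2 ratios of -1.31, -1.53 and -2.72. Sfrp1 was so in wild type set 2 and the knockout, the 2 comparisons in which it was counted.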

How the data were processed

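Libraries of single sorted mouse cells were prepared with the Nextera XT kit and sequenced on an Illumina HiSeq instrument, per the labels' protocols. The deposited table gives raw read counts per gene for 598 cells, made with GSNAP and HTSeq 0.5.3p3 on mm10, per the submitters' processing notes. It has no molecular identifiers, so reads are not independent molecules, and no source used here states the counting options. Of 40912 gene identifiers, 40254 matched a symbol. Coordinates are from GENCODE vM21.

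The counts of each cell were scaled to 1000000 over genes (CPM). Groups were compared by CPM of summed counts, with 1 CPM added for log2 ratios, within each library set, and a gene was called at 2-fold in both sets. No p-value is given because the labels name no embryo. Intervals are exact Poisson or Clopper-Pearson at 95%. No filter on cells was applied and no doublet caller was run, since each well holds 1 sorted cell per the labels. Depth ran from 101895 to 14159574 reads per cell, and for shares each cell was also thinned to 100000 reads (random seed 1). The members, the 20 gene lists and the rules were chosen with earlier results of these data known. Besides the score genes, genes were named by rule: per direction the 14 with the largest smaller-of-both-sets difference in mean log2 level among those past 2-fold in both sets, leaving out mitochondrial, Y-linked and predicted genes, Xist and the 8 set genes; of each list up to 5 genes; and the 10 most correlated with the score. The other list genes that the text names were chosen after their values were seen. A few that met these rules are not reported here.

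The scripts were tested on simulated data. Alternatives were TMM and median-of-ratios factors (edgeR 4.0.16 and DESeq2 1.42.0 in R 4.3.3), equal weight per cell, thinning, 10 CPM added, other filters on low genes, other numbers of members, other scores, and leaving out cells by depth, rank or Y-linked reads. Python 3.11.15, numpy 2.4.6, pandas 2.3.3, scipy 1.17.1 and matplotlib 3.10.9 were used.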

Additional observations from a re-analysis of the deposited data

Results flagged for a closer look

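Actc1, cardiac alpha-actin, was past 2-fold in opposite directions in the 2 library sets, which is what put it here. In set 1 the members had 4.29 CPM against 26.1 CPM in the other cells, a log2 ratio of -2.36, and 8 of 25 members had a read. In set 2 the members had 92.1 CPM against 43.02 CPM, a log2 ratio of 1.08, and 19 of 25 members had a read, with 1 cell giving 36.2% of the reads. The difference between the sets was not tested.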

How the results depend on the processing

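No paired analysis was possible because the labels name no embryo or litter, and no test between groups was run. The shares of genes tested that were higher (0.479%) and lower (1.66%) in both sets, and the 68.1% of set 1 genes past 2-fold with the same sign in set 2, were recomputed under up to 21 planned and 3 added settings. With 10 CPM added they were 0.309%, 0.479% and 79.8%, and the share of higher genes among those called went from 22.4% to 39.2%. With genes of at least 1 CPM (12887 genes) the shares were 0.807% and 2.44%, with at least 20 CPM 0.281% and 0.932% (79.1% same sign), and with no filter (40912 genes) 0.345% and 0.794%. Set 1 alone gave 2.04% and 7.39%, set 2 alone 1.69% and 4.54%. Among set 1 cells without Y-linked reads, where 2 members remain, 3.17% of genes were lower, the share of higher genes was 10.7%, the set 1 median of all genes was -0.70, and Tnfrsf19 turned to a mean log2 ratio of -0.56. With the set 2 score limit in both sets, added after seeing the data, set 1 also keeps 2 members, its median of all genes was -0.25, 2.81% of genes were lower, 57.98% had the same sign, and Fgf4 turned to -1.67. At E6.75 the named higher genes past 2-fold in the knockout went from 1 to 0 with equal weight per cell and after thinning. Thinning also gave 3 higher genes in wild type set 1, 1 lower gene in wild type set 2 and 2 lower genes in the knockout. The cause of these shifts was not tested. Of 53 named genes past 2-fold in both sets, all 53 remained past it under TMM and under median-of-ratios factors, 42 with Tbx6 out of the score, 44 with 10 CPM added and 37 among set 1 cells without Y-linked reads. Depth limits genes under about 5 CPM.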

Other observations

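Cell cycle genes did not separate the members: of 14 S phase and 14 G2/M genes, none was past 2-fold in either set, and the list medians lay between -0.15 and 0.11. Cer1, an inhibitor secreted by anterior endoderm and the one counted gene of the definitive endoderm and axial list, was at 2.41 against 148.2 CPM in set 1 and 3.39 against 192.7 CPM in set 2, the most distant of the list genes. It was read in 15 and 20 of 25 members at low level (median cell 0.67 and 0.88 CPM). The typical other cell was low as well. Summed over the list, Cer1 included, the median other cell had 5.71 CPM in set 1 and 17.1 CPM in set 2. The highest other cells had 9253 and 5569 CPM. The members' medians for the list were 4.38 and 28.1 CPM. The distance in Cer1 is thus one of summed reads, in which high cells weigh most. Foxa2, an endoderm and axial mesoderm factor, was read in 4 set 1 and 14 set 2 members, and Sox17, an endoderm factor, in 4 and 1.

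Of the germ cell list, Ifitm3 was at 44.5 against 13.96 CPM in set 2 and 20.8 against 14.3 CPM in set 1, while Dppa3 and Nanos3, defining germ cell genes, had no read in any member. None of its 2 counted genes was past 2-fold in both sets. In the extraembryonic endoderm list Apoe was lower in both sets (116.6 against 405 and 171.7 against 379 CPM), and Afp and Hnf4a had no read in any member. The extraembryonic ectoderm list had 1 counted gene, Gata3, at 11.5 against 25.9 CPM in set 1 and 4.77 against 7.27 CPM in set 2, and Elf5 and Wnt7b had no read in any member. None of the 9 bone marrow genes was high enough to be counted. Their summed level ran from 0 to 83.1 CPM in the set 1 members and from 0 to 2.1 CPM in the set 2 members. Mpo, a myeloid enzyme, was read in 22 of 25 set 1 members and 44.6% of others, and in 1 of 25 set 2 members.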
